A study of Homo sapiens with 13 samples.

Results

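The genes described here are 10 genes that define or drive the luminal lineage of the breast: ESR1, PGR, FOXA1, GATA3, XBP1, TFF1, SPDEF, ELF5, MYB and TFAP2C. They were chosen by name out of 19881 protein-coding genes, by a rule that uses no measured value but was set with earlier results of these data known, and all 10 had a start site in the annotation (GENCODE release 44 on hg19). They were read in MDA-MB-231, an established human cell line from a triple-negative breast tumor, labelled as basal b. Triple-negative tumors lack the receptors for estrogen and progesterone and the amplified HER2 receptor. The lineage of the line is taken from its label and was not tested here. Chromatin immunoprecipitation and sequencing had been performed on cells in standard culture. There were 2 libraries each for H3K4me1, H3K27ac, H3K4me3, RNA polymerase II (Pol II) and CTCF, whereas pooled immunoprecipitates of p300/CBP gave 1. Peaks had been called on the merged libraries of an antibody and deposited as 6 lists of positions. The lists carry no height or count per peak, so the sequencing depth behind a peak is unknown, no error between replicates can be given, and no test was possible. The number of copies of each locus in this line was not examined. A gene without a listed peak is therefore a gene whose signal stayed under the authors' threshold, which does not show that the mark was absent.

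In the healthy mammary gland, luminal cells line the ducts and form the milk-producing alveoli, and basal cells surround them. ESR1 encodes the estrogen receptor alpha and PGR the progesterone receptor, itself a classical estrogen target. FOXA1 and GATA3 are transcription factors that open chromatin for the estrogen receptor, TFAP2C is a further factor of luminal cells, and ELF5 specifies the alveolar, milk-producing cells. H3K4me3 marks active or poised promoters, H3K4me1 marks enhancers, and H3K27ac, deposited by the acetyltransferases p300 and CBP, marks the active ones of both. CTCF is the architectural protein that bounds chromatin loops. An H3K4me1 region outside promoters was counted as a candidate active enhancer (cAE) when it shared at least 1 bp with H3K27ac, and as a candidate inactive enhancer (cIE) when it did not.

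The 10 promoters did not share a common state (3 kb windows centred on the start of the canonical transcript). FOXA1, XBP1, MYB and TFAP2C carried H3K27ac, H3K4me3 and Pol II together, a combination listed at 56.3% of all protein-coding genes. TFF1 and SPDEF carried H3K27ac without H3K4me3, which was the case for 1.41% of all genes. PGR carried H3K4me3 without H3K27ac, as did 2.68% of genes. ESR1, GATA3 and ELF5 had neither mark, as had 35.9% of genes, and ESR1 and GATA3 had none of the 3 histone marks, as had 30.3%.

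Taken list by list, H3K27ac was found at 6 of the 10 windows, against 61.5% of all genes, and H3K4me1 also at 6 (FOXA1, XBP1, TFF1, SPDEF, ELF5 and TFAP2C), against 59.4%. H3K4me3 was found at 5 windows, against 62.7%, and Pol II at 4, against 58.4%. CTCF lay in 3 windows (FOXA1, ELF5 and TFAP2C), against 17.6%, and p300/CBP in that of TFF1 alone, against 0.704%. With 10 genes and no replicates, the counts for the histone marks, Pol II and CTCF are not set apart from these shares. The H3K27ac without H3K4me3 at TFF1 and SPDEF is the state least often seen elsewhere in the genome, and it rests on narrow peaks: neither was kept when peaks under the median width of their list (1300 bp for H3K27ac) were left out. In a window of 1 kb the Pol II peaks of FOXA1 and MYB, which stand upstream of the start, no longer counted, and XBP1 and TFAP2C alone kept Pol II. Of all genes, 56.7% had Pol II in that window.

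**Figure D1:**
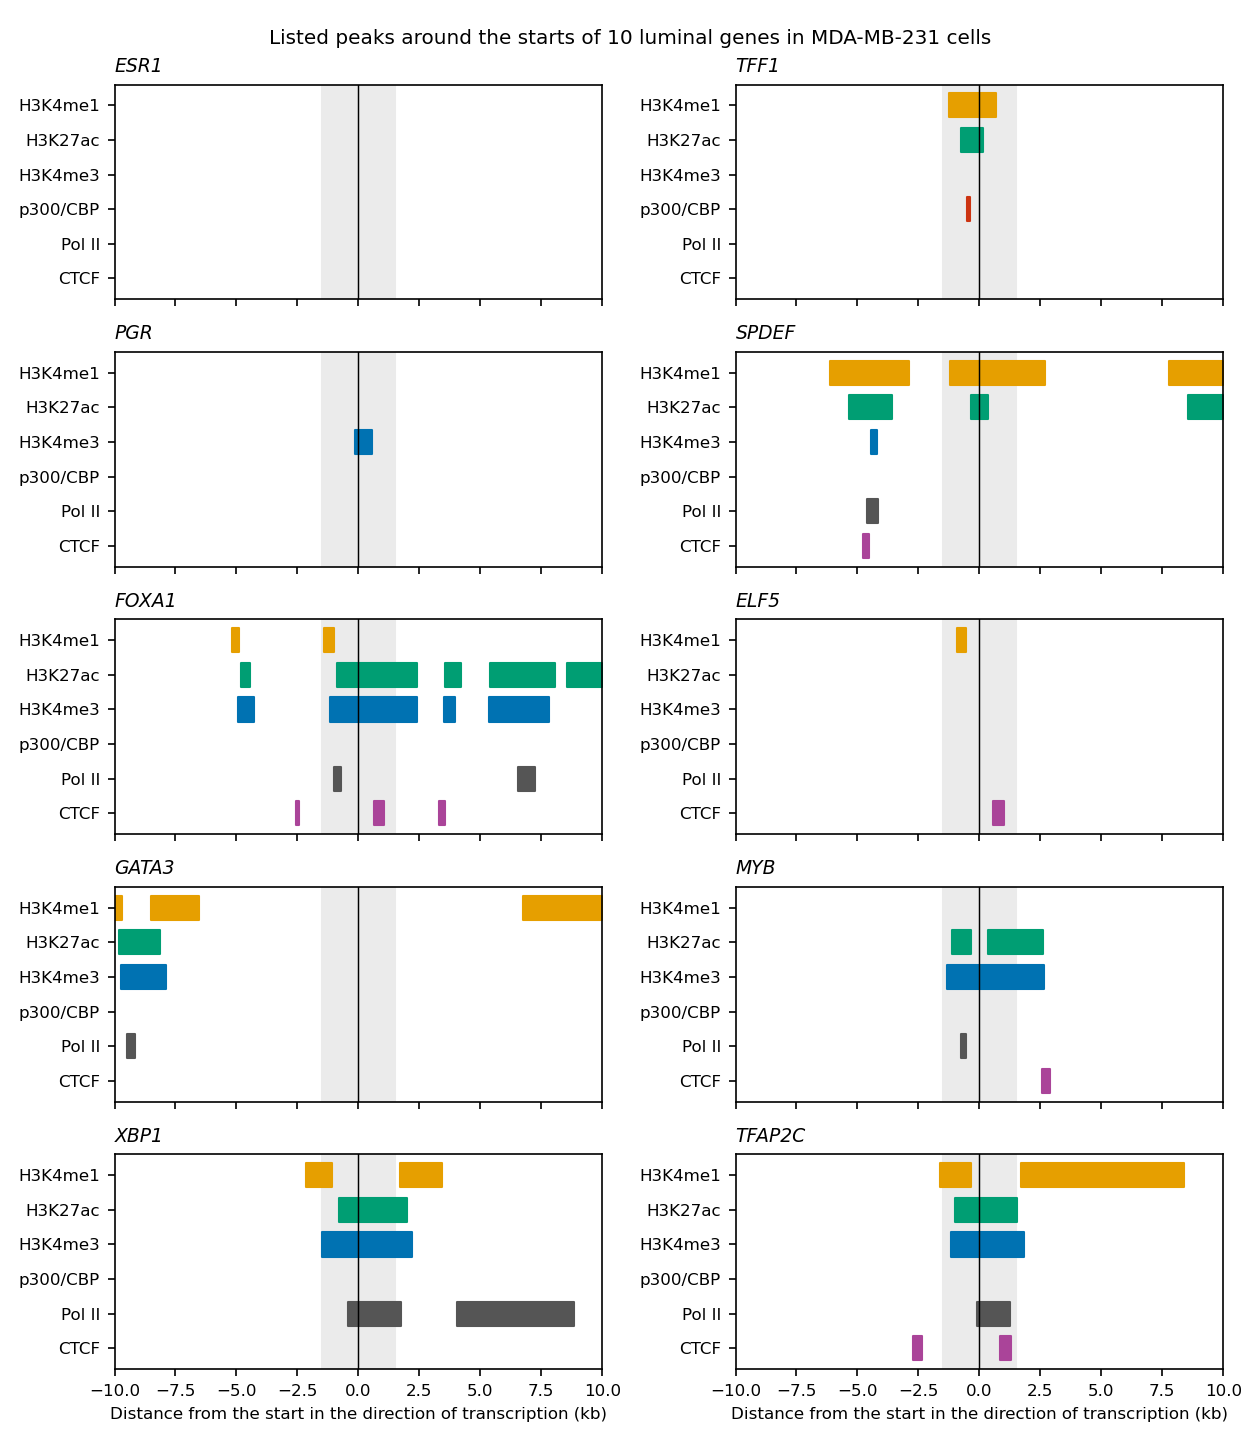
Peaks listed for each antibody (rows) within 10 kb of the start of the 10 genes, with distance from the start in kb on the x axis (positive values lie in the direction of transcription) and the 3 kb promoter window in grey. FOXA1, XBP1, MYB and TFAP2C have H3K27ac, H3K4me3 and Pol II in the window, while that of ESR1 and that of GATA3 are empty.

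The CpG content of the promoter, which the choice of genes did not use, is shown by the following stretches just upstream of 4 starts, read on the strand of the gene from the hg19 genome with every CpG in capitals. They were chosen to cover the 4 kinds of promoter state: MYB with all active marks (chr6:135502196-135502445, plus strand), GATA3 with no mark (chr10:8096401-8096650, plus strand), PGR with H3K4me3 alone (chr11:101000545-101000794, minus strand, where an antisense RNA of PGR has an exon), and SPDEF with H3K27ac and no H3K4me3 (chr6:34524111-34524356, minus strand).
MYB: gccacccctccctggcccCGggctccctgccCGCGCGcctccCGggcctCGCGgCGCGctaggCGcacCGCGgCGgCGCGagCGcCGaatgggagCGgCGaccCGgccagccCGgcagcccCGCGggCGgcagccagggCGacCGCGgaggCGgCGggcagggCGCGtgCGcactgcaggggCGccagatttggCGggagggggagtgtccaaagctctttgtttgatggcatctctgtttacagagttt
GATA3: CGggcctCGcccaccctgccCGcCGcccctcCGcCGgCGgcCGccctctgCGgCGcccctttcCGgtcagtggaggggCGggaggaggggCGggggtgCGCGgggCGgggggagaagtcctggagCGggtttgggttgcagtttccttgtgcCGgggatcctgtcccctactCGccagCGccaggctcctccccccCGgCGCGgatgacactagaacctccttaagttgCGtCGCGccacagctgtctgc
PGR: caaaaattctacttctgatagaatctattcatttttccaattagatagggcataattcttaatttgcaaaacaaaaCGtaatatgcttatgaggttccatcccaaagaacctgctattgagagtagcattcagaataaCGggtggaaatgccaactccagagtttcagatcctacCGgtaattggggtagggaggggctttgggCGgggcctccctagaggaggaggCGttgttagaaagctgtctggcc
SPDEF: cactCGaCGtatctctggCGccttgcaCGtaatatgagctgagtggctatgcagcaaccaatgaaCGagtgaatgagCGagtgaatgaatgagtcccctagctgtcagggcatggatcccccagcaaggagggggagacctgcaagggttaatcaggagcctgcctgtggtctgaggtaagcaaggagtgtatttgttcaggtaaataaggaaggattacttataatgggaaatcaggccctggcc

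The stretch of MYB holds 34 CpGs and that of GATA3 holds 26, whereas those of PGR and SPDEF hold 5 and 6. From 250 bases before to 50 after the start, the ratio of observed to expected CpG was 1.13 for XBP1, 0.966 for FOXA1, 0.928 for MYB, 0.926 for TFAP2C, 0.804 for GATA3 and 0.666 for ESR1. It was 0.485 for PGR, 0.433 for ELF5, 0.413 for TFF1 and 0.397 for SPDEF. All 4 promoters with the full set of active marks were thus CpG-rich, above 0.6, and the unmarked promoters of ESR1 and GATA3 were too. Of the 13437 genes at or above 0.6, H3K27ac was listed at 80.4% and H3K4me3 at 83.1%, and 14.8% had none of the 3 histone marks, the state of ESR1 and GATA3. Of the 6444 genes below 0.6, H3K27ac was listed at 22% and H3K4me3 at 20.2%, and 62.6% had no histone mark. H3K27ac without H3K4me3, as at TFF1 and SPDEF, was found at 3.60% of the CpG-poor genes and at 0.357% of the CpG-rich ones.

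**Figure D2:**
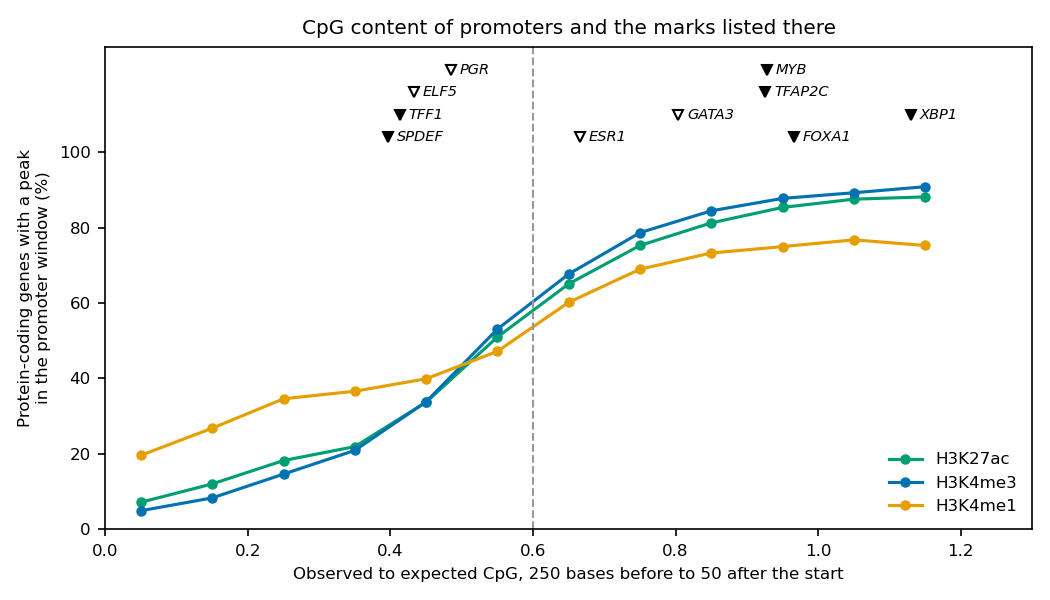
Share of protein-coding genes (%) with a peak of H3K27ac, H3K4me3 or H3K4me1 in the promoter window, by the ratio of observed to expected CpG around the start in steps of 0.1, with the 10 genes as triangles at their own ratio (filled with H3K27ac, open without). H3K27ac rises from 7.13% of genes in the lowest step to 88.2% in the highest; ESR1 and GATA3 are the open triangles to the right of 0.6, and TFF1 and SPDEF the filled ones to its left.

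The estrogen receptor gene ESR1 (chr6:151977826-152450754, plus strand) is 473 kb long, and none of the 6 lists had a peak within 41.9 kb of its canonical start. The nearest H3K27ac, H3K4me3, Pol II and CTCF peaks all belonged to a single stretch upstream, at 42.7, 42.3, 43.4 and 41.9 kb. There, in an intron of the longer ESR1 transcripts, an H3K4me3 peak of 2300 bp and an H3K27ac peak of 1850 bp overlapped each other, a Pol II peak of 150 bp and CTCF. No annotated transcript began inside them, and no H3K4me1 was listed there, so the stretch carried the marks of an active promoter and was counted neither as a promoter nor as a cAE. Only 18.0% of genes had their nearest H3K27ac peak farther away than ESR1, and 18.7% their nearest H3K4me3 peak. The locus (gene and 100 kb on either side) held 3 cAEs, all inside the gene: 2 upstream of the canonical start, the nearer of them 90.6 kb away and 1300 bp wide, and 1 far downstream, 6850 bp wide and running from 287 to 294 kb. No p300/CBP peak was found within 740 kb of the start.

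The progesterone receptor gene PGR (chr11:100900355-101000544, minus strand) had an H3K4me3 peak of 700 bp over its start and nothing else in its 100 kb body: H3K4me1, H3K27ac, p300/CBP, Pol II and CTCF covered 0% of it. The gene bodies of 76.5% of all genes had some H3K4me1, and those of 69.8% some H3K27ac. Of the 533 genes with H3K4me3 and no H3K27ac at the promoter, 45 (8.44%) had Pol II there, so a window without Pol II as at PGR was usual in this state. The width of the PGR peak was also usual, since the widest H3K4me3 peak at these windows had a median of 650 bp (quartiles 350 and 1000 bp). Where H3K27ac was also listed, the median was 2300 bp. The nearest Pol II peak to the PGR start was 252 kb away, and the nearest H3K27ac peak, 200 kb away, lay with a cAE of 4900 bp in an intron of ARHGAP42.

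FOXA1 (chr14:38058757-38065264, minus strand) was covered by active marks over most of its length. H3K27ac (a peak of 3300 bp) and H3K4me3 (3550 bp) lay over its start, and a Pol II peak of 300 bp stood 0.697 kb upstream. This Pol II peak covers the outermost annotated start of FOXA1, that of a transcript outside the basic set. The divergent gene TTC6 also starts in the promoter window, though not under this peak. The canonical start nearest to the peak is that of TTC6, so its Pol II cannot be assigned to FOXA1 alone. Over the whole gene, H3K27ac covered 63.9% and H3K4me3 61.6% of the bases, more than in 97.9% of genes for both marks. A further block of H3K27ac reached past the 3' end of the gene, with peaks of 2650 bp (5.40 to 8.05 kb from the start) and 3600 bp (8.55 to 12.2 kb), H3K4me3, 2 Pol II peaks of 700 bp each and the start of the long noncoding RNA ENSG00000289903. H3K4me1 covered 0% of the gene, and the locus had 1 cAE, of 300 bp, and 4 cIEs. Its nearest p300/CBP peak was 473 kb away.

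GATA3 (chr10:8087341-8117161, plus strand) had an empty canonical promoter amid marked surroundings. The window of the canonical start was empty in all 6 lists. At -9.80 to -8.15 kb from it lay an H3K27ac peak of 1650 bp together with an H3K4me3 peak of 1850 bp and a Pol II peak of 350 bp, and this stretch covers the outermost annotated start of the gene, that of a transcript outside the basic set. The marks of an active promoter were thus listed at an upstream start of GATA3 and not at the canonical one. The locus held 8 cAEs, more than the loci of 89.8% of genes, with 3 of them overlapping the gene, and all 8 were nearer to the GATA3 start than to any other protein-coding start. Of these, 2 (-10.7 to -9.70 kb and -8.50 to -6.55 kb) flank the upstream start and overlap its H3K4me3; the other 6 are a number that exceeds the locus counts of 79.2% of genes. The widest cAE, 9850 bp, ran from 13.6 to 23.4 kb over the 3' part of the gene with p300/CBP and Pol II, and another, 5700 bp, from 6.75 to 12.4 kb. H3K4me1 covered 48.8% and H3K27ac 23.4% of the gene body, more than in 93.8% and 90.1% of genes. In all, 4 p300/CBP peaks lay at the locus, the nearest 15.2 kb from the start, a count that exceeded the locus counts of 93.3% of genes.

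TFAP2C (chr20:55204362-55214339, plus strand) had an active promoter, with H3K27ac of 2550 bp, H3K4me3 of 3000 bp and Pol II of 1350 bp over its start and H3K4me1 on both sides. An H3K4me1 region of 6700 bp without H3K27ac covered 67.1% of the gene body, more than in 97.5% of genes, and was counted as a cIE. The locus had 1 cAE, which was 4350 bp wide, lay 80.8 to 85.1 kb from the start beyond the 3' end of the gene, and carried H3K4me3 and 2 p300/CBP peaks.

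SPDEF (chr6:34505579-34524110, minus strand), an ETS factor of luminal and secretory epithelia, had an H3K27ac peak of 700 bp over its start inside an H3K4me1 region of 3900 bp. No H3K4me3 or Pol II was listed in its promoter window, but both were found upstream, in a cAE of 3250 bp that also held CTCF (-6.14 to -2.90 kb). This cAE contained no annotated transcript start. Another cAE, 7250 bp wide, ran from 7.76 to 15.0 kb inside the gene, and H3K4me1 covered 53.7% of the gene body, more than in 95.0% of genes. As for GATA3, the locus held 8 cAEs, of which 6 were nearest to the SPDEF start. In contrast to GATA3, it held no p300/CBP peak, the nearest being 311 kb away.

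ELF5 (chr11:34500338-34546740, minus strand), also of the ETS family, had an H3K4me1 peak of 350 bp upstream and a CTCF peak of 450 bp downstream of its canonical start. H3K27ac, H3K4me3 and Pol II covered 0% of its body. Toward the start of its longer transcripts, an H3K4me3 peak of 350 bp was listed 12.7 kb upstream of the canonical one, without H3K27ac or Pol II. The locus was rich in candidate enhancers, with 6 cAEs and 11 cIEs, but 1 of the cAEs and 5 of the cIEs were nearest to the ELF5 start, and the other cAEs lay closer to EHF, CAT or ABTB2. All 4 of its p300/CBP peaks were in such cAEs, 1 near EHF and 3 on the side of ABTB2.

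XBP1 (chr22:29190543-29196585, minus strand), a factor of the unfolded protein response that luminal tumors express highly, had the widest Pol II coverage of the 10 genes. H3K27ac of 2800 bp, H3K4me3 of 3700 bp and Pol II of 2200 bp lay over its start, and the long noncoding RNA ENSG00000226471 also begins under the H3K27ac peak. A Pol II peak of 4800 bp followed at 4.06 to 8.86 kb, across and past the 3' end of the gene, and in all Pol II covered 61.9% of the gene body, more than in 94.8% of genes. The locus had 0 cIEs and 2 cAEs. Of these, 1 lay in the gene (1700 bp), where it overlapped the H3K27ac, H3K4me3 and Pol II peaks that cover the start. The other (5050 bp), at the far end in CHEK2, held both p300/CBP peaks of the locus.

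MYB (chr6:135502446-135540311, plus strand), a factor of blood progenitors that the estrogen receptor also regulates in luminal tumors, had an active promoter and little else. H3K4me3 of 4000 bp lay over the start, with an H3K27ac peak of 800 bp upstream and one of 2250 bp downstream of it and a Pol II peak of 200 bp at -0.745 to -0.546 kb. Pol II covered 0% of the gene body. No H3K4me1 was listed within 70.6 kb of the start, and only 7.53% of genes were farther from such a peak. The locus held 0 cAEs, as did those of 19.3% of genes, and 2 cIEs.

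TFF1 (chr21:43782391-43786644, minus strand), a secreted trefoil peptide and a textbook estrogen target, had a promoter with the marks of an active enhancer. An H3K27ac peak of 900 bp and an H3K4me1 region of 1950 bp covered its start, and a p300/CBP peak of 100 bp lay at -506 to -407 bp. For 99.8% of genes the nearest p300/CBP peak was farther from the start. No H3K4me3 was listed within 29.5 kb and no Pol II within 130 kb. Among the 280 genes with H3K27ac and no H3K4me3 at the promoter, 97.5% had H3K4me1, 20.4% Pol II and 8.57% p300/CBP, and the widest H3K27ac peak had a median of 1125 bp (quartiles 650 and 2112 bp), against 2100 bp where H3K4me3 was also present. TFF1 and SPDEF lay below this median with 900 and 700 bp, and neither had Pol II. A width of 100 bp is the narrowest found in the p300/CBP list, and 46.5% of its 13984 peaks had this width.

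**Figure D3:**
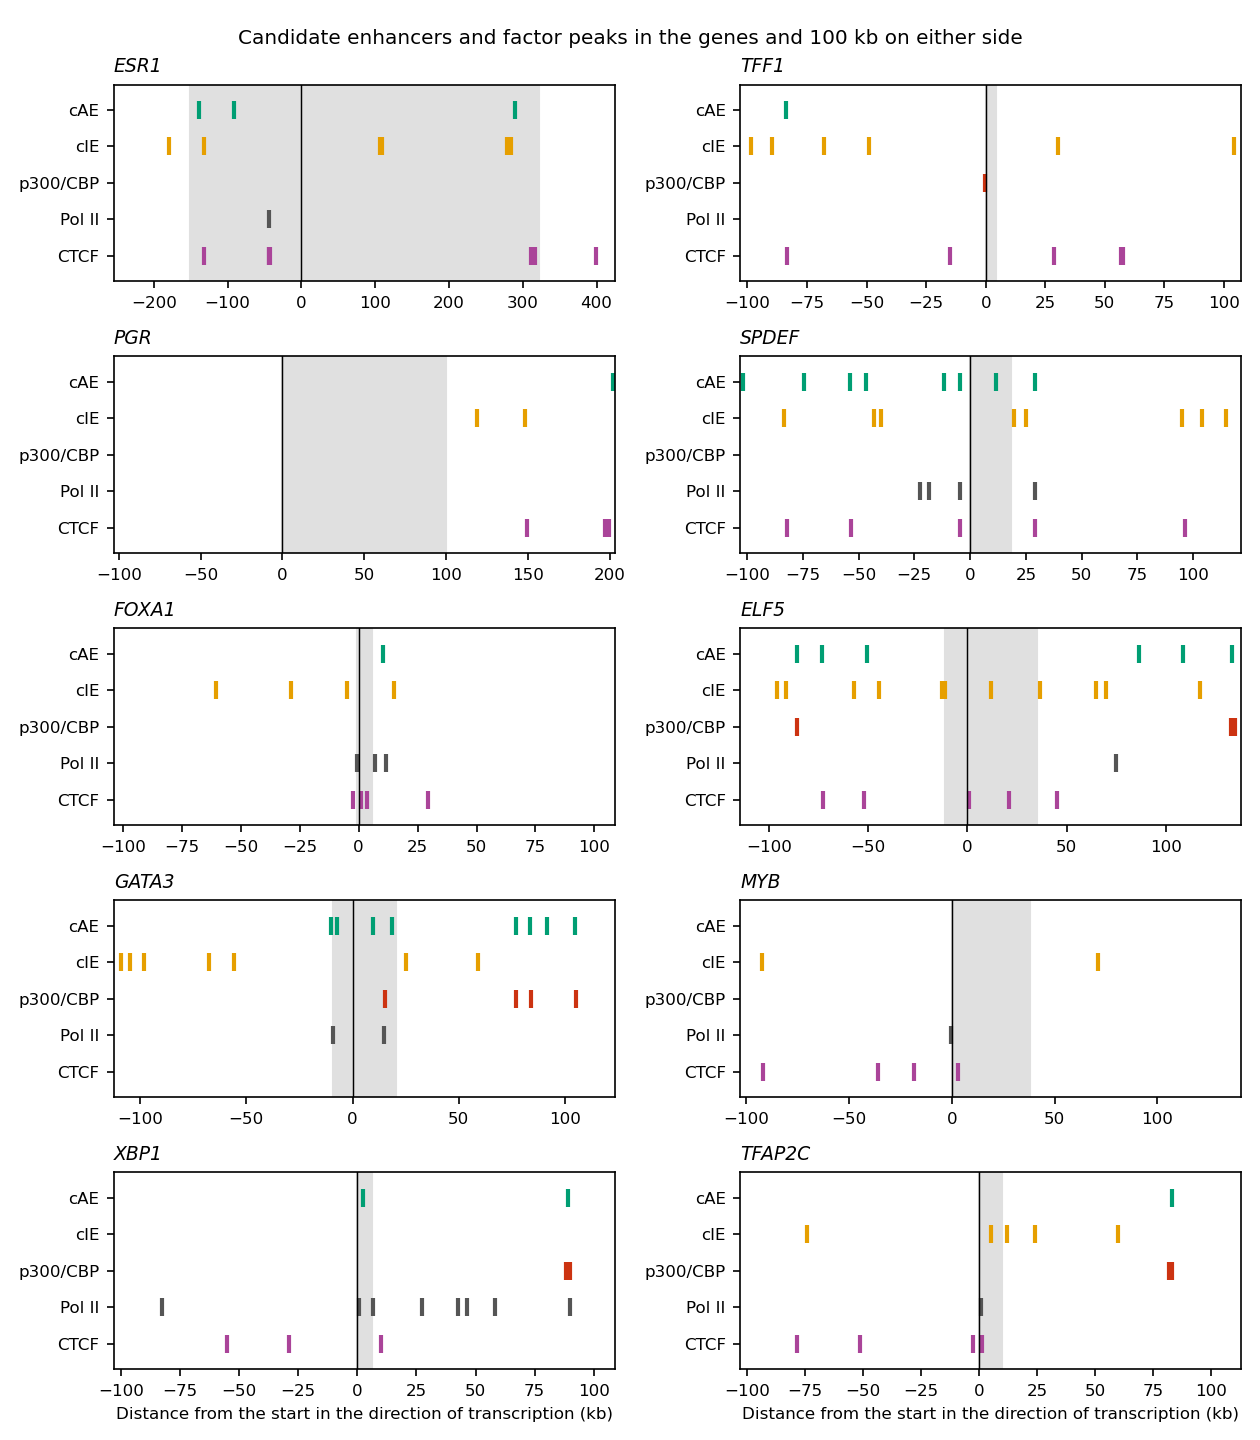
Positions of cAEs, cIEs and peaks of p300/CBP, Pol II and CTCF (rows, 1 mark at the centre of each) in the 10 genes and 100 kb on either side, with distance from the start in kb on the x axis and the gene body in grey. GATA3 and SPDEF have 8 cAEs each and MYB none; the GATA3 row of CTCF is empty.

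Over the 10 loci, 31 cAEs were counted, 22 of them nearest to the start of the gene in question, with a median of 1.5 per locus against 3 over all genes. The counts ranged from 0 at MYB to 8 at GATA3 and SPDEF, and these 2 genes with ELF5 (6) made up most of the total. Loci of long genes span more sequence, and their counts were not corrected for it. For cIEs the sum was 51, with a median of 5.50 against 6. Pol II peaks numbered 21, with a median of 1 against 4, and 8 of the 10 loci lay below the median of all genes. The exceptions were XBP1 with 8, most of them at its neighbors, and SPDEF, which equalled the median with 4. The 13 p300/CBP peaks lay at 5 loci (GATA3, ELF5, XBP1, TFAP2C and TFF1), while 62.5% of all loci had 0. All 13 overlapped H3K4me1 regions, against 57.9% of the whole list. A cAE held 12 of them, the exception being the TFF1 promoter, against 7004 of 13983 in the genome. These 12 peaks shared 8 cAEs and so are not 12 separate sites, and a difference from the whole list was not tested. The paper reports fewer p300/CBP peaks than the deposited list holds, with a larger share of them in its own cAEs. H3K27ac itself overlapped 10 of the 13, against 6889 of 13983 in the genome. The others were the 3 peaks at the ELF5 locus on the side of ABTB2, which shared only the H3K4me1 region with H3K27ac.

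The cAEs at these genes were also read for what else they carried, beside all cAEs of the genome. p300/CBP lay in 8 of the 31 (25.8%, against 20.6% of 24322 cAEs), Pol II in 6 (19.4%, against 21.0%), CTCF in 6 (19.4%, against 16.4%) and H3K4me3 in 10 (32.3%, against 34.2%). None of these 4 was listed in 12 (38.7%, against 41.0%). Among the 51 cIEs, 0 held p300/CBP, Pol II or CTCF, against 1.26%, 3.77% and 7.57% of 49286, and 6 held H3K4me3 (11.8%, against 3.19%). The loci overlap those of neighboring genes, and cAEs of a locus are not replicates of each other.

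Sequences are given for p300/CBP peaks at TFF1, GATA3, TFAP2C and ELF5, since p300/CBP is brought to chromatin by sequence-specific factors. The letters of 6 motifs were searched on both strands, which are spelled out beside their counts. Matches are in capitals, and all stretches are read from the plus strand of hg19. They are the TFF1 peak at chr21:43787051-43787150, the GATA3 peak 76.8 kb from the start at chr10:8173351-8173500 and the last 150 bases of that lying farthest from the start at chr10:8202001-8202150, both TFAP2C peaks at chr20:55286251-55286400 and chr20:55287351-55287550, and an ELF5 peak 133 kb from the start at chr11:34402251-34402550.
TFF1 promoter: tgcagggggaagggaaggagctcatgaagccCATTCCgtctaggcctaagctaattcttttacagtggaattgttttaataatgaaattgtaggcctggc
GATA3, peak at 76.8 kb: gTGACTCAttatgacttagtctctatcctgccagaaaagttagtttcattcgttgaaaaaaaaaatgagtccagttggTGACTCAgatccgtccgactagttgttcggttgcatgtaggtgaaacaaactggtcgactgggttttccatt
GATA3, farthest peak: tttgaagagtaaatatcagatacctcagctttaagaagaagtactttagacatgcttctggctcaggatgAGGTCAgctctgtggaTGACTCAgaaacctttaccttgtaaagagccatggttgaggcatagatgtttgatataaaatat
TFAP2C, nearer peak: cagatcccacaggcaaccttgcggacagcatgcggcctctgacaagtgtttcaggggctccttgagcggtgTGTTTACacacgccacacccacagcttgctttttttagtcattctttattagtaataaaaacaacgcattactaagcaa
TFAP2C, farther peak: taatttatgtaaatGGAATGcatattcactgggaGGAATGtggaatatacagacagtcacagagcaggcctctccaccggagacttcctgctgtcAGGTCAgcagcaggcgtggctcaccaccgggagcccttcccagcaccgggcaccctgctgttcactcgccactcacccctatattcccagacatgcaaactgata
ELF5 locus: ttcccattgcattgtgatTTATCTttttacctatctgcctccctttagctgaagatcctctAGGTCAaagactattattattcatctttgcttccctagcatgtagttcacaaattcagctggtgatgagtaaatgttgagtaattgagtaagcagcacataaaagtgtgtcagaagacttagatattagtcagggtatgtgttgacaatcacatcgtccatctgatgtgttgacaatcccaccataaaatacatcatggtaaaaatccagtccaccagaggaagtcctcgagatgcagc

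The AP-1 letters (TGANTCA) were found in 2 of the 13 p300/CBP peaks, both at GATA3, where the peak at 76.8 kb holds them in 2 places, and in 28.1% of the whole list. Within 200 bp around the centre of each peak they were found in 4 of the 13, against 33.1% of the list. Nuclear receptor half-sites (AGGTCA) were found in 3 peaks (1 each at GATA3, ELF5 and TFAP2C), against 12% of the list. FOX letters (TGTTTAC) were found in 2 (GATA3 and TFAP2C), against 5.85%, and GATA letters (AGATAA) in 3, all at the ELF5 locus and none at GATA3, against 10.4%. TEAD letters (GGAATG) were found in 2, at the TFF1 promoter and at TFAP2C, against 24.5%, and ETS letters (CCGGAA) in 1 at the ELF5 locus, against 3.01%. Longer peaks offer more places for a match, and a match of these letters is a description of the sequence, not of a bound factor.

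CTCF peaks numbered 40 over the 10 loci, with a median of 4 against 5 over all genes. The core of the CTCF motif, searched on either strand as AGNNGGC with GG, GT, AT or AG in the middle, was present in 24 of the 40, against 55.7% of the list. The distance between the nearest CTCF peaks on either side of the start ranged widely, from 3.10 kb at FOXA1 and 3.20 kb at TFAP2C to 601 kb at GATA3, around a median of 75.6 kb over all genes. The interval was 353 kb at ESR1 and 410 kb at PGR. It was longer than that of GATA3 at 1.53% of genes, than that of PGR at 3.39% and than that of ESR1 at 5.23%. These genes, all without H3K27ac in the window of the canonical start, lay in the longest CTCF-free intervals of the 10. GATA3 did have H3K27ac at its upstream start, as described above. ELF5, also without H3K27ac in that window, had an interval of 52.2 kb, and the 6 genes with H3K27ac there had intervals from 3.10 to 43.2 kb. At GATA3, the 8 cAEs and the start lay in the same interval, and the locus had 0 CTCF peaks, as did 2.69% of all loci. This order was read over 10 genes and was not tested.

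Further gene lists set these promoters in context. The 21 family relatives of the 10 genes had H3K27ac in 13 windows (61.9%, against 61.5% of all genes), H3K4me3 in 14 (66.7%, against 62.7%) and the full active state in 11 (52.4%, against 56.3%), all near the shares over all genes. ESRRA, NR3C1, FOXA2, FOXA3, FOXC1, GATA6, ATF4, ATF6, ELK3, MYBL1 and MYBL2 carried H3K27ac, H3K4me3 and Pol II, and TFAP2A carried H3K27ac and H3K4me3 without Pol II. ESR2, the estrogen receptor beta gene, had H3K4me3 without H3K27ac, the state of PGR. ELF3 had H3K27ac without H3K4me3, the state of SPDEF. Neither mark was listed at GATA2, TFF2, TFF3, ETS1, EHF and TFAP2B. Within families the states therefore differed: GATA6 was marked and GATA3 and GATA2 were not at their canonical starts, and TFF1 carried H3K27ac while its neighbors TFF2 and TFF3 carried H3K4me1 only.

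The 40 other luminal and estrogen-response genes had H3K27ac at 26 windows (65.0%, against 61.5% of all genes), H3K4me3 at 24 of 40 (against 62.7%) and Pol II at 19 (47.5%, against 58.4%), shares that are not set apart from those over all genes. Neither H3K27ac nor H3K4me3 was listed at 12 of 40 (against 35.9%): EPCAM and CDH1, which encode epithelial adhesion molecules, the secreted proteins TFF3, AGR3, SCUBE2 and CXCL12, the receptors PRLR, RET and RARA, and GREB1, TOX3 and BCAS1. H3K27ac without H3K4me3 was found at AGR2, PDZK1, CLDN4 and ANXA9 (10.0% of the list, against 1.41% of all genes), which are named because they share the state of TFF1 and SPDEF and were picked out after their values were seen. The median number of cAEs per locus was 4 in this list and 6 for the family relatives, above the 1.5 of the 10 genes. For Pol II the medians were 3 and 4, against 1. The lists overlap, and TFF3 is in both.

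All 14 coregulators of the estrogen receptor, which the receptor needs to activate or repress its targets, had H3K27ac, H3K4me3 and Pol II at the promoter, against 56.3% of all genes, among them NCOA1, NCOA2, NCOA3, NCOR1, MED1, EP300 and CREBBP. The receptor gene itself had none of these at its canonical start. The labelled basal type of the line was read with 28 basal or mesenchymal genes, of which 22 had H3K27ac (78.6%, against 61.5% of all genes) and 18 the full active state (64.3%, against 56.3%, which is near the share over all genes). The exceptions with neither H3K27ac nor H3K4me3 were KRT5, KRT14 and KRT17, the keratins of basal cells, CDH2, which encodes the mesenchymal N-cadherin, and ETS1.

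**Figure D4:**
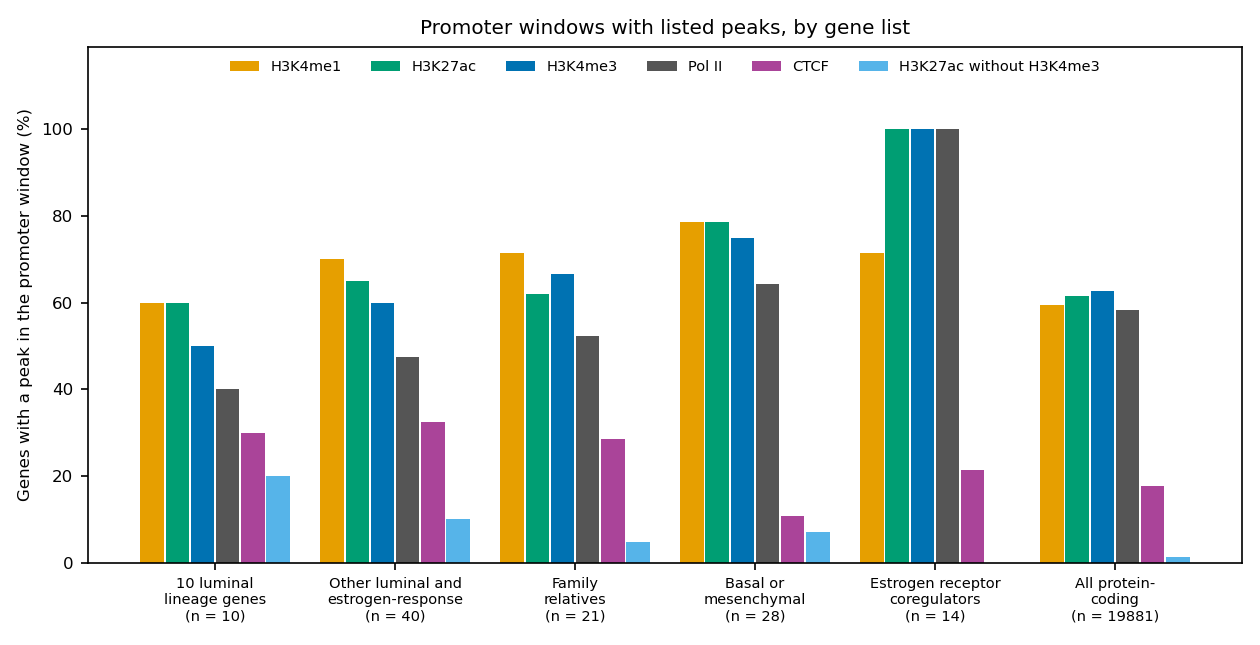
Share of genes (%) with a peak of each antibody, and with H3K27ac but no H3K4me3, in the promoter window, for the 10 genes, the 4 comparison lists and all protein-coding genes (n under each group; no error bars, since libraries were merged before peak calling). H3K27ac stands at 6 of the 10 genes, 14 of 14 coregulators and 61.5% of all genes.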

How the data were processed

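Chromatin immunoprecipitation and sequencing was available for 13 samples of MDA-MB-231 cells, of which 2 were inputs, not used here. For alignment to hg19 the study's methods name BWA-backtrack 0.7.12-1039 and the submitters' processing notes Bowtie2. From unique reads the authors built a signal in bins of 50 bp, merged replicate libraries, and kept runs of bins over a threshold of 30 for H3K4me1 and H3K4me3, 50 for H3K27ac, Pol II and CTCF, and 60 for p300/CBP. Scaling is named for all lists but CTCF, and subtraction of background for p300/CBP and the histone marks. The deposited lists hold 3 columns of positions in base pairs and no value per peak, so depth is unknown and precision cannot be given.

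Positions lie on a grid of 50 bp, and the end was taken as the base after the peak. Genes and starts came from GENCODE release 44 mapped to GRCh37 (19881 protein-coding genes on chromosomes 1 to 22, X and Y, with the canonical start). Windows of 3 kb, flanks of 100 kb and an overlap of at least 1 bp were used, with Python 3.11.15 and NumPy 2.4.6, and matplotlib 3.10.9 for figures. On simulated intervals the overlap and distance functions gave 0 wrong answers in 2440 comparisons with direct counting. The members and comparison lists were chosen with earlier results of these data known. Members, the family relatives and, in the other lists, genes with neither H3K27ac nor H3K4me3 (or with both, where fewer) were named. Counts are set beside the same share over all genes, and no significance test was made. Alternatives changed the window, the start, the flank, the peak width, the overlap, the CpG window and threshold, and the stretch searched for motifs. Expression data were not analysed here, and some genes of the comparison lists, though counted, are not reported by name.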

Additional observations from a re-analysis of the deposited data

How the results depend on the processing

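Of 79 values recomputed under alternatives, 55 stayed within 1.5 times the main count and 24 moved further. Windows of 1 kb left H3K4me1 at 3 of the 10 promoters (against 22.3% of all genes). They left Pol II at 2 (XBP1 and TFAP2C, against 56.7%) and CTCF at 0 (against 11.2%). Windows of 10 kb raised CTCF to 5 (against 30.6%). H3K27ac stayed at the same 6 genes with both windows and with all basic starts, which added ELF5 to H3K4me3. Over all genes these settings gave H3K27ac at 59.3% (1 kb), 65.2% (10 kb) and 63.3% (all basic starts). Keeping only wide peaks, of the median width of a list or more, left H3K4me1 at 3, Pol II at 2 and p300/CBP at 0 promoters, and H3K27ac at 14 of the 40 other luminal genes; TFF1 and SPDEF lost H3K27ac and PGR lost H3K4me3. Around the genes these wide peaks gave 16 cAEs, 27 cIEs and 6 p300/CBP peaks, and in gene bodies Pol II at 2 and p300/CBP at 0 genes. Flanks of 50 kb gave 15 cAEs, 33 cIEs, 2 p300/CBP and 26 CTCF peaks, and flanks of 200 kb gave 51, 95, 23 and 62. Requiring H3K27ac over at least 50% of an H3K4me1 region left 17 cAEs; this rule gives no count of cIEs. Without the first 1500 bp, gene bodies of 3 genes held Pol II, and within 200 bp of peak centres AP-1 letters were found in 4 p300/CBP peaks. These alternatives by construction change the stretch searched or the peaks kept. The wide peaks were 45085 of the 88319 listed for H3K4me1, 20558 of 41034 for H3K27ac and 12680 of 24693 for H3K4me3. For Pol II they were 13246 of 26065, and for p300/CBP 7486 of 13984. Shares over all genes are not given for wide peaks or shortened gene bodies. Those losses are therefore not shown to be particular to the genes counted. Without a value per peak, a stricter signal threshold was not tried. No paired analysis was possible because each list came from merged libraries, nor was there a replicate to leave out.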

Other observations

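The basal or mesenchymal genes were read in the same way for p300/CBP peaks around them. Their loci had a median of 3 p300/CBP peaks and 6 cAEs, against 0.5 and 1.5 for the 10 luminal genes and 0 and 3 over all genes. The medians were 1 and 6 for the family relatives, 1 and 4 for the other luminal genes and 0.5 and 4 for the coregulators. A median of 6 cAEs was thus not particular to the basal or mesenchymal list. The highest counts in the basal or mesenchymal list, picked out after the values were seen, were 13 p300/CBP peaks each at EGFR, which encodes the epidermal growth factor receptor, and at CAV2, which encodes a caveolin. PLAU, the urokinase plasminogen activator, had 8. Among the 10 luminal genes the counts went up to 4, at GATA3 and ELF5. No test was made between the lists, since genes are not replicates and loci of neighboring genes overlap.

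SPARC, a matrix protein, and TP63, the p63 factor of basal cells, carried H3K27ac without H3K4me3 at the promoter, the state of TFF1 and SPDEF; they too were picked out after their values were seen.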
